A study of Saccharomyces cerevisiae with 10 samples.

Results

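The mRNAs described here encode the proteins of the small (40S) ribosomal subunit of Saccharomyces cerevisiae. They were chosen by systematic name, as the 56 annotated RPS genes from RPS0A to RPS31, and all 56 were found among the 6717 yeast genes of the expression table. They form 24 pairs of duplicated genes, called the A and the B copy, and 8 single-copy genes. The choice of genes used no measured value.

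The study asked how the deadenylases of the Ccr4-Not complex take part in mRNA decay, and these libraries followed mRNA levels genome-wide after transcription was stopped in cells without Caf1. The cells were MATa, carried rpb1-1 and caf1::HIS3 with mutant marker alleles of leu2, ura3 and his3, and were given as strain yJC1257 in the sample characteristics, while the growth text names yJC244. Every library thus comes from cells with the temperature-sensitive RNA polymerase II allele rpb1-1 and without CAF1 (POP2), so no CAF1 cells and no cells with a working polymerase at the high temperature are part of the comparison. A culture in mid-log growth at 24 °C gave the 0 min sample and was then moved to 37 °C, with 5 more samples up to 15 min (at 3, 6, 8, 10 and 15 min) and 4 after that (at 20, 30, 45 and 60 min). Decay and any response to the heat itself therefore cannot be told apart.

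Ribosomal proteins are made in equimolar amounts, and their mRNAs are among the most abundant and most heavily translated in growing yeast. The genome duplication in the yeast lineage left most of these genes with a paralog that encodes the same or nearly the same protein, while the regulatory regions and introns of the copies differ. Most yeast mRNAs are degraded by shortening of the poly(A) tail, followed by decapping and digestion from the 5′ end. The tail is shortened by Ccr4 and Caf1, the nucleases of the Ccr4-Not complex, and by the Pan2-Pan3 complex.

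Levels are FPKM, sequenced fragments scaled to transcript length and library size, divided by the summed FPKM of the ERCC spike-in RNAs relative to 0 min. There was 1 library per time point, so no level has a replicate error, and the errors given are those of fits over the time course. An estimate from the steps between low FPKM values put the depth at 2216000 to 4932000 fragments per library, with the lowest at 15 min. The spike-in sums rose to 1.42 times the 0 min value at 60 min. POP2 was at 0 to 0.846 FPKM after the shift and at 0.887 FPKM at 0 min. HIS3, the marker in the caf1::HIS3 allele, was listed at 0 in all 10 libraries. A transcribed HIS3 marker would give a level above 0, so this value does not bear out the label, and the reason was not tested. Whether the libraries were made from poly(A)-selected or total RNA was not given per sample, so loss of the tail and loss of the mRNA cannot be told apart.

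The libraries labelled 30 min and 45 min did not follow the order of their times. The median member stood at 20.1% of its 0 min level in the 30 min library, 37.0% in the 45 min library and 16.3% in the 60 min library. The level was higher at 45 than at 30 min for 53 of 56 members, the exceptions being RPS9A, RPS27A and RPS29A, against 74.3% of all genes. The same order appeared in ratios between paralogs, which do not depend on the spike-ins: in 13 of the 18 pairs with a drifting ratio described below, the ratio had moved further at 30 min than at 45 min. Whether the labels of these libraries are exchanged was not tested, and values are given as labelled. The counts and the median half-life are also given without these libraries, and the half-lives of single members without them were 0.872 to 1.21 times those with them. A smaller dip was seen at 8 min, where 52 members were lower than at both 6 and 10 min. The share of all genes with this dip was not counted. The median over all genes tested dipped as well, to 56.7% at 8 min, against 66.9% at 6 min and 66.1% at 10 min. The spike-in factor was 1.25 at 8 min, against 1.12 at 6 min and 1.05 at 10 min.

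Sequences are shown for the 4 pairs on which the comparison of copies turns, since reads can be assigned to a copy only where the copies differ. The stretches are coding sequence from RefSeq assembly R64, read 5′ to 3′ along the spliced coding sequence, and bases that differ from the other copy are in capitals. The genes, from start to stop codon with any intron, lie at chrXI:158613-159212 (+ strand, RPS27A), chrVIII:147871-148669 (- strand, RPS27B), chrVII:148229-148588 (- strand, RPS26A), chrV:423952-424311 (+ strand, RPS26B), chrXVI:404950-406044 (+ strand, RPS9A), chrII:604508-605508 (+ strand, RPS9B), chrV:306323-307196 (+ strand, RPS24A) and chrIX:231553-232369 (- strand, RPS24B). All but the RPS26 copies hold 1 intron. RPS27A and RPS27B (whole coding sequence, 249 bases) differed at 39 positions, and no 50-base window of either occurred elsewhere in the genome.
RPS27A: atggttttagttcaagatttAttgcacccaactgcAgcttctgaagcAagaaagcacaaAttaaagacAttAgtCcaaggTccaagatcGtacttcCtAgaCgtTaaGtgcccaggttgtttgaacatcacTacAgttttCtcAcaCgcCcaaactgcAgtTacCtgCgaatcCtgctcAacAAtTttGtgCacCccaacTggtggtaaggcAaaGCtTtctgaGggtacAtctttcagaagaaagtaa
RPS27B: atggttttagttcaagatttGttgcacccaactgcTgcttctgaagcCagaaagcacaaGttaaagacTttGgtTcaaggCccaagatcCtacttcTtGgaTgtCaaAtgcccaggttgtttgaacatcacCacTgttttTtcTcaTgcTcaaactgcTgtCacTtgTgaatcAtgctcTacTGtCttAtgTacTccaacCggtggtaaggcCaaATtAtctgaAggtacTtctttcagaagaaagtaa
RPS26A (bases 238 to 357) and RPS26B (the same bases) differed at 15 of these 120 positions and also shared no 50-base window.
RPS26A: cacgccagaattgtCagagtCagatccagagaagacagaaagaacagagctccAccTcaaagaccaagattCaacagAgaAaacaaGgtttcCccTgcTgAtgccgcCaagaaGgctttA
RPS26B: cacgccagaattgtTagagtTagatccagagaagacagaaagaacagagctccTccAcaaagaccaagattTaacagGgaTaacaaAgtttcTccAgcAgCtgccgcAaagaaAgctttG
RPS9A and RPS9B (bases 136 to 255) differed at 14 of 120 positions, and 4.95% of the 50-base windows of RPS9A occurred elsewhere.
RPS9A: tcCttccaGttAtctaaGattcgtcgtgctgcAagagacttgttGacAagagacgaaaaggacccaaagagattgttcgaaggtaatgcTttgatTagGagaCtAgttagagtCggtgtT
RPS9B: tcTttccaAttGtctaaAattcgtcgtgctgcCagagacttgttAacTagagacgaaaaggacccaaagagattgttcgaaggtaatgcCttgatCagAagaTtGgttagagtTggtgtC
RPS24A and RPS24B (bases 1 to 120) differed at only 6 positions, with long stretches of identity, and 38.2% of their 50-base windows occurred elsewhere.
RPS24A: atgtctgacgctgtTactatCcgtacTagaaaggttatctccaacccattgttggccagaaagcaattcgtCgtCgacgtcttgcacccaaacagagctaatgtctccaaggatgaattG
RPS24B: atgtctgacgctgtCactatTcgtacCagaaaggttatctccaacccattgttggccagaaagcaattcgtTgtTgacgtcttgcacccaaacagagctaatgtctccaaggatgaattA

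Across the 24 pairs the coding sequences were 84.3% (RPS27) to 99.2% (RPS6) identical, with a median of 92.7%. At the median pair, 91.8% of the differing bases were at the third position of a codon. In 4 pairs over 20% of the 50-base windows were found elsewhere in the genome, among them RPS24 (38.2%), RPS4 (46.8%) and RPS6 (72.1%), and in 9 pairs none was. How the authors' pipeline divided fragments that matched both copies was not given in the sources used here, so the levels and half-lives of the copies of such pairs are uncertain. In addition, 10 members (both copies of RPS21, RPS27, RPS28, RPS29 and RPS30) have under 300 coding bases, close to the estimated mean fragment length of 132 to 164 bases, so their FPKM cannot be set against those of longer genes.

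All 56 small subunit mRNAs fell over the 60 min. At 0 min the 46 members of 300 coding bases or more ranged from 63.3 FPKM (RPS22B) over a median of 852 FPKM to 2748 FPKM (RPS31). The 10 shorter ones were listed at 41.5 FPKM (RPS29A) to 7023 FPKM (RPS30B). All members together made up 3.52% of all yeast FPKM at 60 min, against 9.38% at 0 min. The summed level of the members at 60 min was 19.7% of that at 0 min. These sums include the 10 shorter members, whose FPKM cannot be set against those of longer genes. In limma, the slope of log2(FPKM + 1) over time was below 0 with an adjusted p under 0.05 for 56 of 56 members, against 57.7% of the 5176 genes tested, and 0 members rose, against 1.68% of genes. The slopes ran from -0.65 per 10 min (RPS26B) to -0.19 per 10 min (RPS30A), with adjusted p between 0.000314 and 0.0489, the highest being that of RPS9A. Leaving out 1 library at a time, RPS9A lost its call in 7 of 10 fits (adjusted p from 0.0550 to 0.116) and the other 55 members kept theirs. Without the 30 and 45 min libraries those 55 members also fell, against 48.8% of all genes, and RPS9A did not pass.

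Relative to its level before the shift, the median member stood at 96.4%, 86.7%, 75.7%, 86.4%, 64.8% and 56.0% after 3, 6, 8, 10, 15 and 20 min. The median over all genes tested stood at 82.3%, 66.1%, 50.1% and 35.9% after 3, 10, 20 and 60 min. The typical small subunit mRNA was thus above the typical gene up to 20 min and below it at 60 min. At 3 min, 14 members were still above their 0 min level, and at 10 min 1 was, RPS26A. The share of all genes above theirs at these times was not counted.

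**Figure D1:**
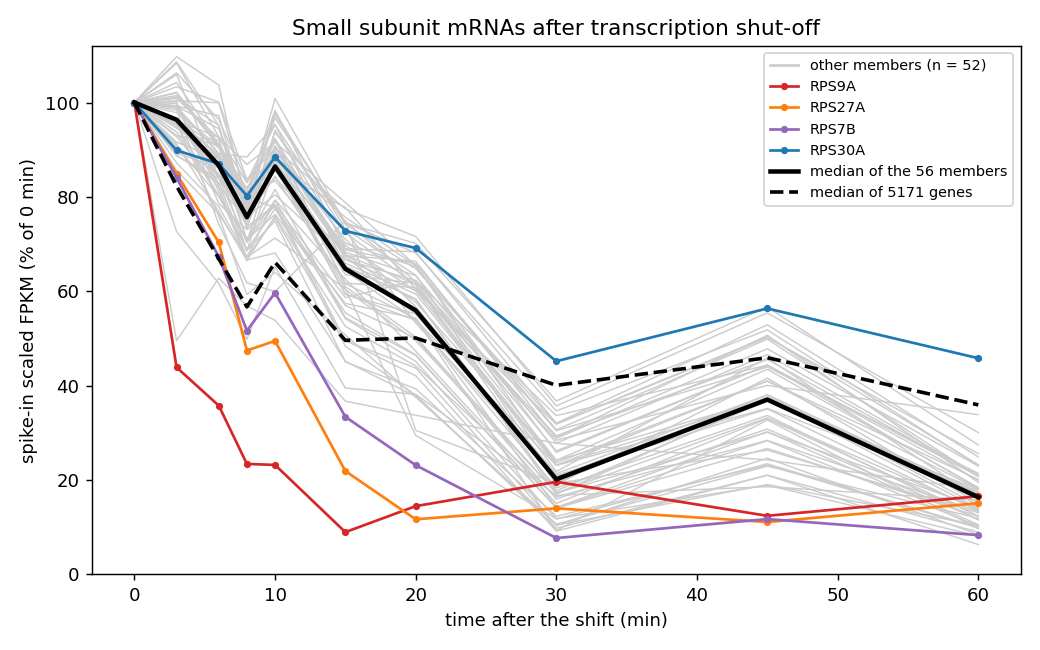
Level of each small subunit mRNA (y axis, spike-in scaled FPKM in percent of 0 min) against time after the shift (x axis, min), 1 library per point. Grey lines are members, coloured lines RPS9A, RPS27A, RPS7B and RPS30A, the thick black line the median of the 56 members and the dashed line the median of 5171 genes. The member median stays above the gene median until 20 min and is at 16.3% at 60 min, against 35.9% for the genes.

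The time of the fall differed from that of most genes. Between 0 and 10 min, 5 members fell in limma (RPS7B, RPS9A, RPS27A, RPS28B and RPS29B) and 0 rose, which is 8.93% of the members falling, against 44.8% of genes falling and 2.11% rising. The median slope was -0.33 per 10 min for members and -0.68 per 10 min for all genes tested. With 5 libraries this count moved with each one left out: it was 0 without 0 min, 2 without 3 min, 3 without 6 min, 4 without 8 min and 24 without 10 min, while the share of all genes that fell was 2.65%, 27.4%, 35.6%, 26.3% and 71.0%.

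Between 15 and 60 min, limma called 0 members and 0 of 5176 genes, so the background was 0% in each direction. At an unadjusted p under 0.05 there were 51 members and 1100 genes (21.3%). The median slope was -0.38 per 10 min for members and -0.07 per 10 min for all genes. The 30 min library decided this count: without it 53 of 56 members fell, against 11.7% of all genes, and the 3 that did not pass were RPS9A, RPS27A and RPS30A. The small subunit mRNAs therefore had about the same slope early and late, whereas the median gene had a steeper slope early, although the difference between the windows was not tested.

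**Figure D2:**
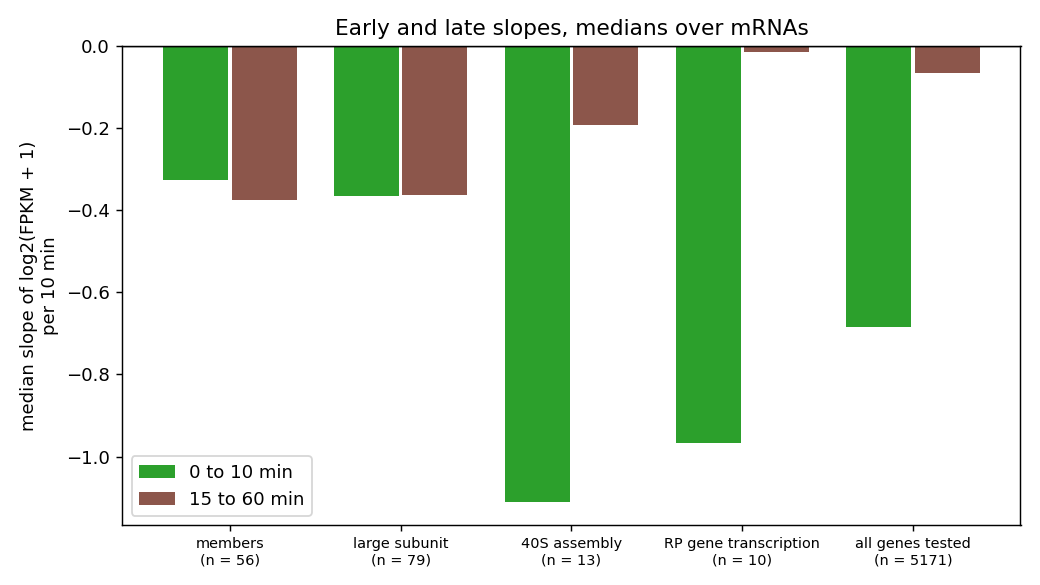
Median slope of log2(FPKM + 1) per 10 min (y axis) from 0 to 10 min (green) and from 15 to 60 min (brown), for small subunit members, large subunit mRNAs, the 40S assembly list, the list for ribosomal protein gene transcription and all genes tested (x axis, number of mRNAs in brackets). Members stand at -0.33 early and -0.38 late, all genes at -0.68 early and -0.07 late.

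Large subunit and stalk protein mRNAs (RPL and RPP genes) gave nearly the same values. Of 79 with a level above 0 at 0 min, 78 fell over 60 min and 7 fell between 0 and 10 min, with a median level of 15.7% at 60 min and a median half-life of 21.8 min. Of 13 mRNAs for 40S assembly factors and for chaperones of single small subunit proteins, 12 fell between 0 and 10 min (44.8% of all genes) and 12 over 60 min (57.7% of all genes), and their median half-life was 9.63 min. Their early median slope was -1.11 per 10 min, against -0.33 for the members, while over 60 min both medians were -0.43 per 10 min, and their median level at 60 min was 14.3% of that at 0 min. The difference between the lists was not tested. Among them, TSR2, for the chaperone of Rps26, was at 11.3 FPKM at 10 min, against 31.3 FPKM at 0 min. YAR1, for the chaperone of Rps3, was at 140 FPKM at 3 min, against 76.3 FPKM at 0 min, and did not pass the early test. Of 10 mRNAs for regulators of ribosomal protein gene transcription, 7 fell early and 4 over 60 min, against the same 44.8% and 57.7% of all genes. FHL1, a DNA-binding activator of these genes, was at 6.37 FPKM at 10 min, against 18.7 FPKM at 0 min. Of the mRNAs of 2 proteins bound to the small subunit, ASC1 stood at 26.1% and STM1 at 26.6% of the 0 min level at 60 min, above the members' upper quartile of 20.3%. Both fell in limma (adjusted p = 0.000580 and 0.000776).

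A half-life was fitted to each mRNA as a single exponential held at the 0 min level. It was accepted where the mean absolute residual was at most 0.14 and the half-life at most 60 min. All 56 members passed, against 53% of 5285 fitted genes. Half-lives had a median of 23.8 min and quartiles of 17.4 and 28.1 min, and the median was 25.4 min without the 30 and 45 min libraries. The median depended on the scaling, at 33.1 min without the spike-ins and 43.5 min with each library at the same total FPKM. Over all 5171 genes tested the median was 22.4 min with quartiles of 11.3 and 49.2 min, and over the genes among them that met these limits it was 15.9 min. Half-lives of single members ran from 3.86 min (RPS9A) to 41.0 min (RPS30A), and their standard errors from 0.809 to 10.8 min with a median of 5.05 min. Sorted by half-life, only 1 of the 55 steps between neighbours, RPS9A to RPS27A, was larger than 2 combined standard errors. Neighbours in a sorted list lie close by construction, and the errors include deviations that members share. The count thus does not show whether members further apart differ, and the exact order is uncertain. Half-life had a Spearman rho of 0.33 with the level at 0 min and of -0.23 with coding length over the 56 members, which all come from the same libraries. The members include the 10 under 300 coding bases, whose FPKM cannot be set against those of longer genes, so the first value is uncertain. Half-lives were also fitted to levels relative to 0 min, so both quantities behind the first value share the 0 min level and its error. The 36 members with an intron had a median of 24.4 min and the 20 without one a median of 20.9 min.

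Of the 8 single-copy members, RPS31 had the shortest fitted half-life. It encodes ubiquitin fused to a ribosomal protein. RPS31 (YLR167W, chromosome XII) was at 2748 FPKM at 0 min, 1036 FPKM at 20 min and 285 FPKM at 60 min, with a half-life of 14.7 ± 2.31 min (SE of the fit). RPS2, whose protein lines the mRNA entry side, was at 1114, 438 and 109 FPKM at the same times, and its half-life was 15.8 ± 2.78 min. RPS12, for a protein of the beak, had a half-life of 19.7 ± 3.59 min and was at 11.7% at 60 min.

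RPS3 and RPS20 encode neighbouring proteins of the head that Hel2 marks with ubiquitin on collided ribosomes. RPS3 was at 1692, 918 and 178 FPKM at 0, 20 and 60 min, with a half-life of 20.5 ± 4.32 min. RPS20 was at 1947, 1171 and 391 FPKM, with a half-life of 25.7 ± 5.66 min. The difference was smaller than the combined error. RPS15, for a protein of the head needed for export of the pre-40S particle, had a half-life of 25.6 ± 6.94 min and stood at 15.0% at 60 min. RPS13, for a protein of the body, had the longest of the single-copy genes, 27.7 ± 6.56 min, and stood at 21.0%. Fitted over 0 to 20 min only, RPS15 gave 32.9 min.

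Beside RPS31, 3 other genes encode ubiquitin. RPL40A and RPL40B, fusions to a large subunit protein, fell to 15.5% and 8.06% at 60 min, with half-lives of 22.7 ± 5.01 and 13.4 ± 1.996 min. UBI4, a chain of ubiquitin units without a ribosomal part that is induced by stress, was at 397 FPKM at 0 min, 576 FPKM at 20 min and 553 FPKM at 60 min, and its slope of 0.07 ± 0.04 per 10 min did not pass the test (adjusted p = 0.135 in limma).

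**Figure D3:**
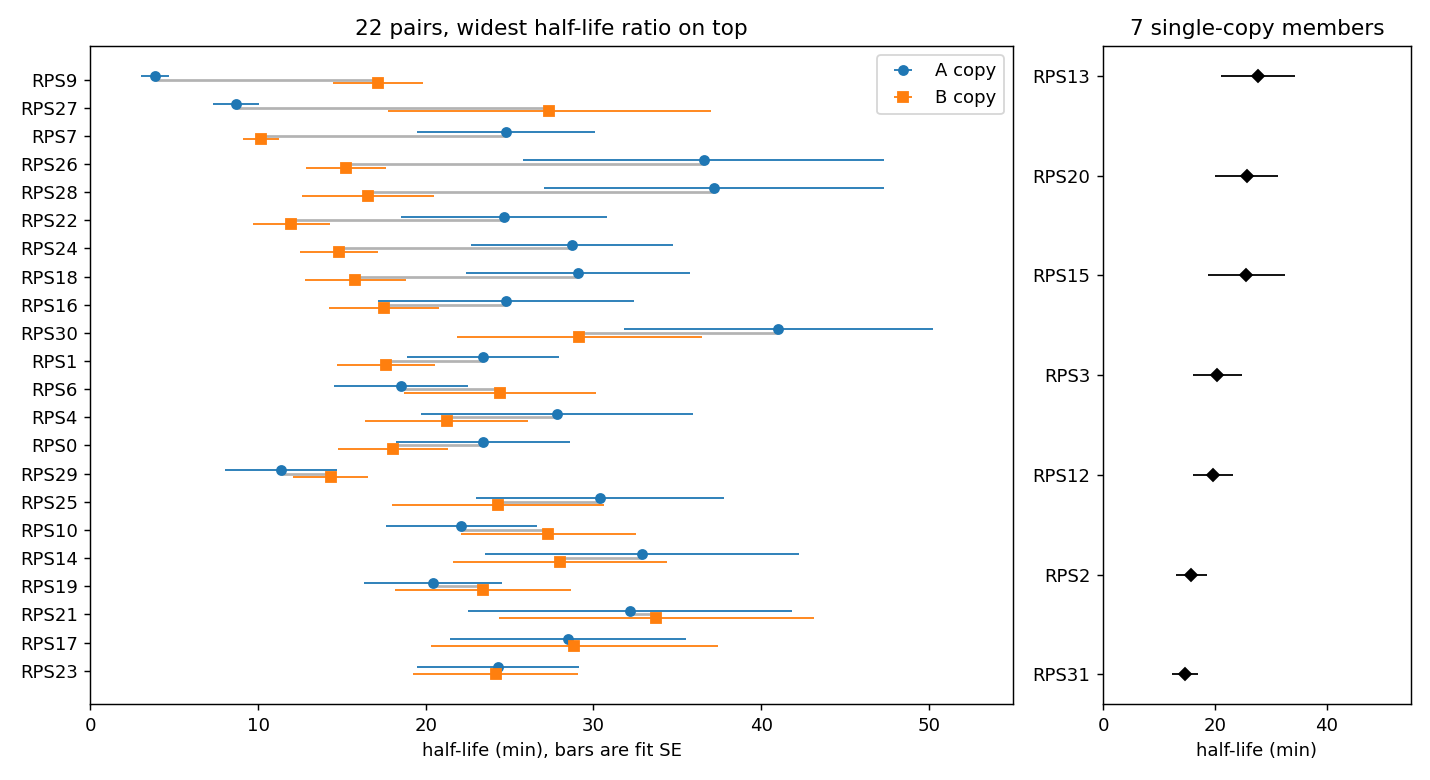
Fitted half-life (x axis, min) of both copies of 22 pairs (left, A copies as blue circles, B copies as orange squares, sorted by the ratio of the longer to the shorter) and of 7 single-copy members (right, black diamonds). Bars are standard errors of the fit over 10 libraries. RPS9A, at 3.86 min, lies apart from all others.

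The copies of a pair often differed. The longer half-life of a pair was 1.01 times (RPS23) to 4.45 times (RPS9) the shorter, with a median of 1.37 times. Only 3 pairs, RPS7, RPS9 and RPS24, had half-lives more than 2 combined standard errors apart. The error of a half-life includes deviations that both copies share, so the ratio of A to B within each library is the closer comparison. The slope of its log2 value over time exceeded 2 standard errors in 18 of 24 pairs, toward A in 14 and toward B in 4, and in 15 pairs without the 30 and 45 min libraries. This is a description of each pair, with no correction for the number of pairs. The copy with the higher level at 0 min had the longer half-life in 17 pairs, including the 3 pairs just named. Half-life and level at 0 min share the 0 min library and its error. In 19 pairs 1 copy was the higher in all 10 libraries.

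RPS26 had the largest drift. Its protein sits at the mRNA exit channel, where it touches the mRNA upstream of the start codon. RPS26A (YGL189C) was at 1075, 1067, 1015, 850, 1084, 800, 754, 395, 609 and 295 FPKM from 0 to 60 min. RPS26B (YER131W) was at 306, 267, 238, 206, 231, 152, 129, 27.9, 64.2 and 19.3 FPKM. RPS26A was the higher in every library, and RPS26A over RPS26B was 15.3 at 60 min, against 3.51 at 0 min, with a slope of 0.35 ± 0.05 per 10 min on the log2 scale. The half-lives were 36.6 ± 10.8 min for RPS26A and 15.2 ± 2.39 min for RPS26B. At 60 min, 27.4% of RPS26A and 6.29% of RPS26B was left, and no other member was at a lower share than RPS26B.

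RPS18, whose protein belongs to the head, began with nearly equal copies, and their ratio was the next to drift. RPS18A was at 992, 658 and 227 FPKM at 0, 20 and 60 min, and RPS18B at 923, 351 and 82.6 FPKM. The ratio slope was 0.27 ± 0.05 per 10 min, with half-lives of 29.1 ± 6.68 min for RPS18A and 15.8 ± 3.01 min for RPS18B. RPS24 drifted at 0.24 ± 0.04 per 10 min although a large part of its copies is identical: RPS24A was at 858, 519 and 178 FPKM and RPS24B at 355, 104 and 28.7 FPKM, with half-lives of 28.7 ± 6.04 and 14.8 ± 2.34 min.

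**Figure D4:**
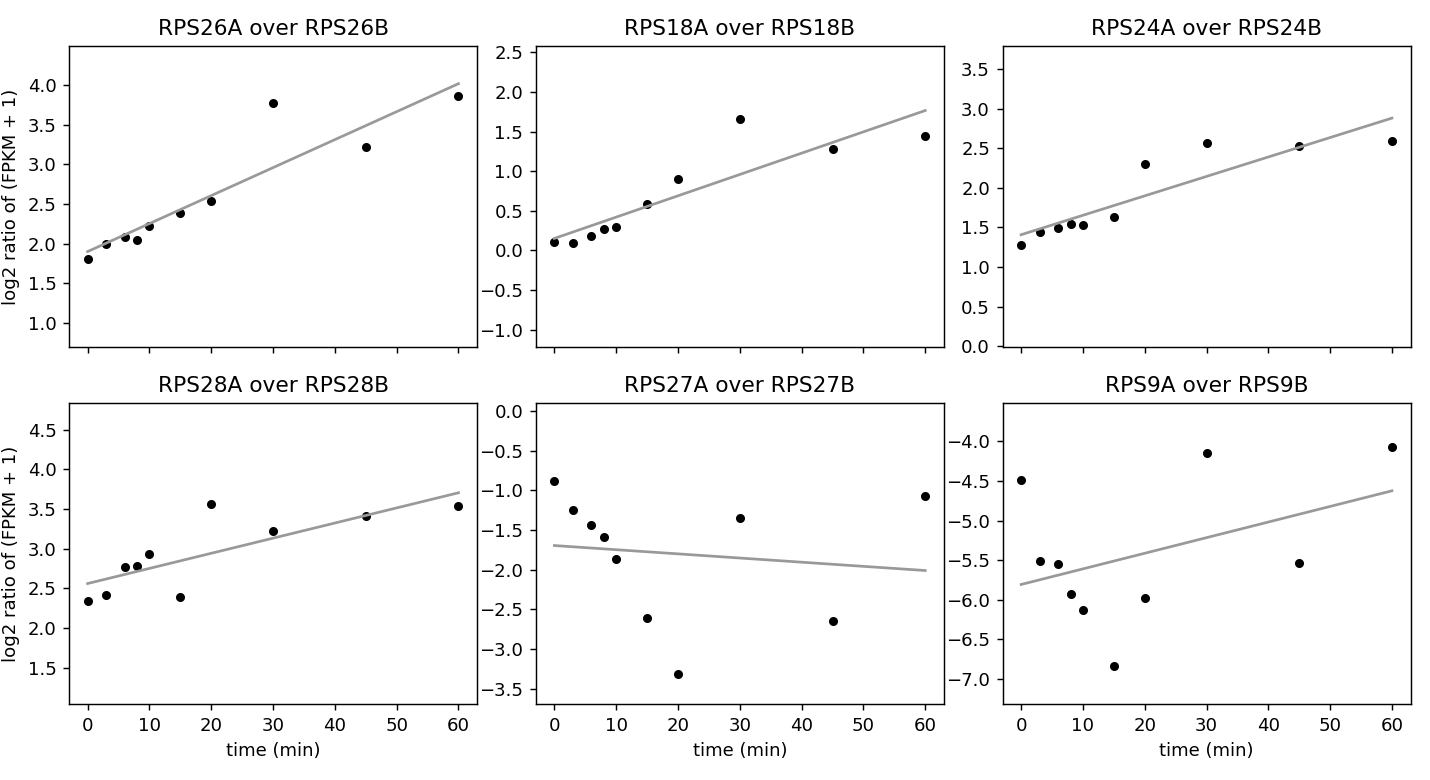
Log2 ratio of the A to the B copy, each as FPKM + 1 (y axis), against time (x axis, min) for 6 pairs, with the straight-line fit in grey; every panel spans the same range of log2 units. RPS26, RPS18, RPS24 and RPS28 run toward A, while RPS27 and RPS9 run toward B up to 15 or 20 min and turn afterwards.

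RPS27A and RPS9A did not follow a straight line. RPS27 encodes a zinc-binding protein. RPS27A (YKL156W) was at 1541, 1308, 1084, 731, 762, 337, 179, 215, 171 and 232 FPKM from 0 to 60 min. RPS27B (YHR021C) was at 2826, 3101, 2931, 2193, 2770, 2068, 1792, 550, 1076 and 486 FPKM. RPS27A thus reached 11.6% of its start at 20 min, when RPS27B stood at 63.4%, and then stayed between 11.1% and 15.1%, while RPS27B went on to 17.2% at 60 min. Over 0 to 20 min the log2 ratio of RPS27A to RPS27B changed by -1.21 ± 0.08 per 10 min, the steepest of all pairs in that window, and over 60 min by -0.05 ± 0.14. The half-life of RPS27A was 8.70 ± 1.35 min, and that of RPS27B 27.4 ± 9.63 min. With a log-linear fit (a straight line through the logarithm) RPS27A gave 19.7 min. RPS27B was chosen for description after its values were seen.

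RPS9 encodes a protein that binds the ribosomal RNA early in assembly, and splicing of its transcripts is under control of the genes' own introns. RPS9A (YPL081W) was at 65.6, 28.7, 23.4, 15.3, 15.2, 5.85, 9.46, 12.8, 8.12 and 10.8 FPKM from 0 to 60 min, the shortest half-life of all members at 3.86 ± 0.809 min. From 15 min on it showed no further fall. RPS9B (YBR189W) was at 1492, 1132, 659 and 199 FPKM at 0, 10, 20 and 60 min, with a half-life of 17.1 ± 2.70 min, and was higher than RPS9A in every library. RPS9A had an estimated 29.8 fragments at 60 min, against 115 at 0 min. The part that fragments from the far more abundant RPS9B have in its late level was not tested. With a log-linear fit RPS9A gave 33.3 min, and with decay to a plateau 2.31 min.

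**Figure D5:**
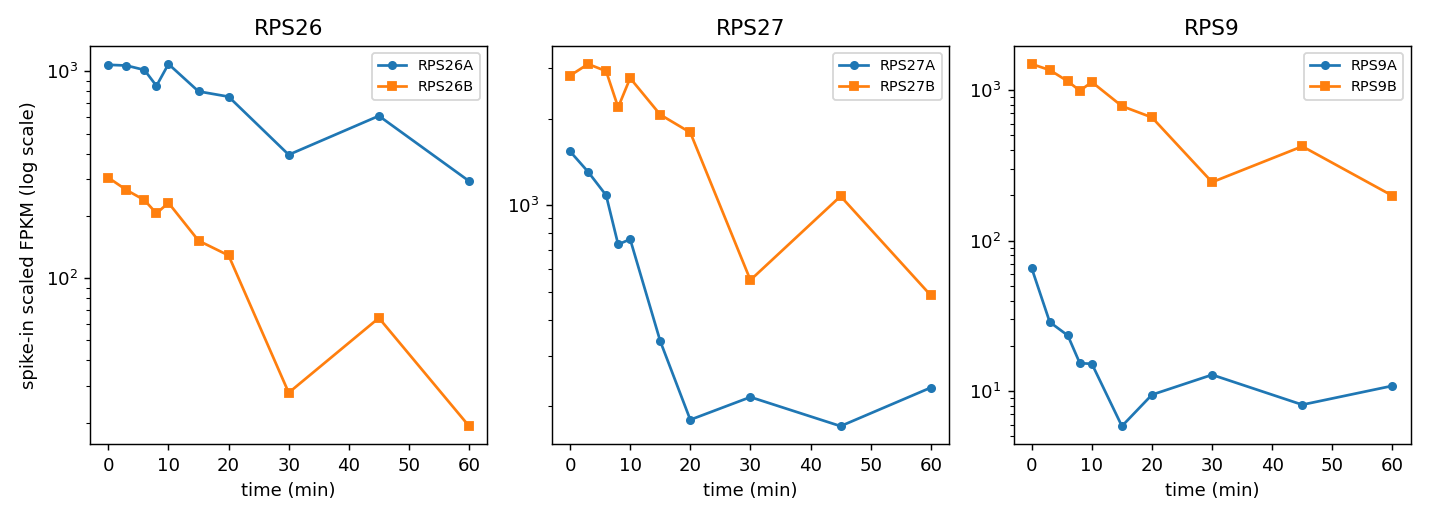
Spike-in scaled FPKM (y axis, log scale) of the A copy (blue circles) and the B copy (orange squares) of RPS26, RPS27 and RPS9 against time (x axis, min), 1 library per point. RPS26B lies below RPS26A throughout, RPS27A reaches 179 FPKM at 20 min and levels off, and RPS9A levels off at 5.85 to 12.8 FPKM.

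RPS7B had the third-shortest and RPS30A the longest fitted half-life. Rps7 is a small subunit protein that Not4, the ubiquitin ligase of the Ccr4-Not complex, modifies. RPS7B (YNL096C) was at 261, 156, 60.3 and 21.6 FPKM at 0, 10, 20 and 60 min, with a half-life of 10.2 ± 1.08 min, or 15.5 min with a log-linear fit. RPS7A was at 621, 523, 358 and 105 FPKM, with a half-life of 24.8 ± 5.33 min, and the copies share 0.763% of their 50-base windows. RPS30A (YLR287C-A) was at 4988, 4412, 3449 and 2284 FPKM, so that 45.8% was left at 60 min, the highest share of all members, and its half-life was 41.0 ± 9.24 min. RPS30B, for the same small protein, was at 7023, 6614, 4579 and 1501 FPKM, with a half-life of 29.2 ± 7.32 min. The place of RPS30A depended on the fit: with decay to a plateau it had 16.1 min, below RPS30B at 28.9 min, and it had 78.2 min without spike-in scaling and 219 min with each library at the same total FPKM. RPS30B was the higher copy at 0 min and RPS30A at 60 min.

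The remaining pairs with known control of their own mRNAs were RPS28, RPS14 and RPS22. In wild-type yeast Rps28 protein binds its RPS28B mRNA together with Edc3 and speeds its decapping without prior loss of the tail. RPS28A (YOR167C) was at 3753, 3385, 2688 and 1127 FPKM at 0, 10, 20 and 60 min, with a half-life of 37.2 ± 10.1 min. RPS28B (YLR264W) was at 739, 443, 226 and 96.4 FPKM, with a half-life of 16.5 ± 3.94 min, and fell between 0 and 10 min in limma with a slope of -0.85 ± 0.26 per 10 min (adjusted p = 0.0207). RPS28A over RPS28B rose by 0.19 ± 0.05 per 10 min on the log2 scale. RPS28B stood higher at 15 min, 554 FPKM, than at 10 min, in the library with the shortest fragments and the lowest depth; at 204 coding bases, the part of fragment length in this value was not tested.

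Rps14 protein represses splicing of RPS14B pre-mRNA. RPS14A was at 1375, 940 and 342 FPKM at 0, 20 and 60 min and RPS14B at 395, 240 and 134 FPKM, with half-lives of 32.9 ± 9.35 and 28.0 ± 6.38 min and a ratio slope of -0.03 ± 0.04 per 10 min over 60 min, within 2 standard errors. Over 0 to 20 min it was 0.09 ± 0.02 per 10 min and exceeded them. With a log-linear fit the order of the copies turned, at 30.6 min for RPS14A and 33.6 min for RPS14B, and with a plateau RPS14B gave 18.2 min. RPS22B carries the small nucleolar RNA SNR44 in an intron and its transcripts can be cut by the RNase III enzyme Rnt1. RPS22B was at 63.3, 24.2 and 9.94 FPKM, on an estimated 14.9 fragments at 60 min and 61.0 at 0 min, and RPS22A at 1285, 685 and 221 FPKM. The half-life of RPS22B was 12.0 ± 2.29 min, that of RPS22A 24.7 ± 6.14 min, and the slope of their ratio did not exceed 2 standard errors (-0.02 ± 0.06 per 10 min). With a log-linear fit the half-lives were 22.5 min for RPS22B and 22.7 min for RPS22A, and with a plateau RPS22B gave 8.06 min.

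RPS29 encodes a small zinc-binding protein of the head. RPS29A (YLR388W), with 171 coding bases, was at 41.5, 20.5, 26.0, 23.6, 22.3, 15.2, 14.0, 11.5, 10.1 and 7.45 FPKM from 0 to 60 min, with a half-life of 11.4 ± 3.33 min. That value was 29.0 min with a log-linear fit, 18.6 min where the start was fitted too and 5.39 min with a plateau. RPS29B was at 228, 146, 85.8 and 27.1 FPKM at 0, 10, 20 and 60 min and fell in the early window (adjusted p = 0.0301 in limma). The half-life of RPS29B was 14.3 ± 2.24 min, longer than that of RPS29A. RPS29A over RPS29B nevertheless rose by 0.20 ± 0.09 per 10 min on the log2 scale over 60 min. Over 0 to 20 min this slope was 0.08 ± 0.20 per 10 min, within 2 standard errors. Which copy of RPS29 was the more stable is therefore uncertain. With the copies of each pair summed, half-lives spanned 13.9 to 33.2 min with a median of 23.8 min, and all 24 sums passed the limits. The time at which the level first reached 50% without a decay model was at most 10 min for 4 members, between 10 and 20 min for 15 and between 20 and 30 min for 37. The share of all genes in these ranges was not counted. The median over all genes tested stood at 49.6% at 15 min and 50.1% at 20 min.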

How the data were processed

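The deposited table holds 1 FPKM column per library for 6717 yeast genes and 92 ERCC spike-ins. The authors made the FPKM with CASAVA, Bowtie 0.12.7 and Cufflinks 1.3.0, per the labels. Reads were aligned to SacCer2, so its coordinates were not used, and sequences and gene structures come from R64, matched by systematic name. All 10 libraries were used, and 0 columns of other samples were left aside. A biological duplicate that the submitters mention is not analysed here.

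Each library was divided by its ERCC sum relative to 0 min. Fits and tests were limited to the 5439 protein-coding genes with a described product that matched R64. Among the genes left out were 692 not matched and 568 coding genes without a described product. All genes in a comparison are those of this set that could be fitted or tested. Half-lives were fitted by least squares. Slopes over time came from limma 3.58.1 (R 4.3.3) on log2(FPKM + 1) for genes whose FPKM averaged 1 or more, two-sided, with Benjamini-Hochberg adjustment over all genes tested and a threshold of 0.05. The fits were tested on simulated data. Spacing of low FPKM values gave the depth: 93.6% to 97.7% of low values were whole fragments within 0.1. Python 3.11.15 was used otherwise.

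Members described singly were the single-copy genes, the 3 shortest and 3 longest half-lives, the 4 pairs with the largest ratio slopes, RPS9, RPS14, RPS22, RPS28, and the highest and lowest at 0 min, of which a few are not reported here. Members and lists were chosen with earlier results of these data known. Alternatives covered the scaling, the decay model, the pseudocount, the filter and each library left out.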

Additional observations from a re-analysis of the deposited data

How the results depend on the processing

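No paired analysis was possible because 1 library per time point was analysed. The median half-life of 23.8 min was 33.1 min without spike-in scaling and 43.5 min with each library at the same total FPKM, and equal totals also gave a median member level of 31.1% after 60 min. With each time point left out the median half-life ran from 22.0 to 27.4 min, the pairs with a drifting ratio from 16 to 19, the members that fell from 0 to 10 min from 0 to 24 and those that fell from 15 to 60 min from 0 to 53. With log2(FPKM + 10), 8 members fell from 0 to 10 min, against 47.3% of all genes. Over 60 min, RPS9A also lost its call with log2(FPKM + 0.1), with no filter and without scaling, and RPS9A and RPS30A lost theirs at the same total FPKM (adjusted p = 0.301 and 0.143). The slope of the A to B ratio changed sign for RPS9, RPS14, RPS22 and RPS23 when fitted over 0 to 20 min only. Of these, RPS9 (-0.79 ± 0.30 per 10 min, against 0.20 ± 0.15 over 60 min) and RPS14 exceeded 2 standard errors in the short window. The order of copies by half-life turned for RPS9 (RPS9A 33.3 and RPS9B 20.7 min) and RPS14 with a straight line and for RPS30 with a plateau. Among 29 members described singly, the half-life moved by more than its standard error for 28 without scaling, 29 at the same total FPKM, 9 with a straight line, 7 with a plateau, 6 with interpolation, 2 with a free starting level and 1 with 0 to 20 min. Leaving out the 30 and 45 min libraries moved 0 of them. Interpolation, members of 300 coding bases or more, the drift count without the 4 pairs with long identical stretches and leaving out the 30 and 45 min libraries were chosen after seeing the data. With 1 library per time point, a deviation of a library and a change at that time cannot be told apart.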
